A study of Mus musculus with 7 samples.

Results

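Cells with forced MN1 expression were set against untransduced cells of the same kind, in 4 of the 7 RNA libraries of the series: 3 libraries labelled MN1 and 1 labelled untransduced. All 4 came from mouse haematopoietic stem and progenitor cells (HSPCs), the blood-forming cells of the marrow, and the libraries were chosen by their labels alone. The MN1 cells received a plasmid for MN1 and were sorted. Every library grew in medium with fetal bovine serum, murine IL-3, IL-6 at 10 ng/mL and stem cell factor at 20 ng/mL, and RNA was taken after 7 to 9 days. Poly(A) RNA was read from both ends at 150 bases. The other 3 libraries carry MN1 without its polyglutamine stretch and entered only the scaling.

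The control limits what the comparison can show. It is a single library, so no p-value is given and its own spread is not known. It received no construct according to its title and its overexpression label, while its source label calls it transduced like the others. Transduction, sorting and MN1 itself cannot be told apart without a library of cells carrying an empty vector. The labels do not say on which day each library was taken, whether the 3 MN1 samples came from separate animals, or which promoter drove MN1. In bulk RNA, fewer cells of a type and less RNA per cell cannot be told apart.

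MN1 is a transcriptional co-regulator without a classical DNA-binding domain, and its forced expression in mouse progenitors is a known route to myeloid leukaemia. It works together with homeobox factors of the HOXA cluster and their MEIS partners, which normally keep stem and progenitor cells growing and are switched off as blood cells mature. IL-3 and stem cell factor favour the growth of mast cells, basophils and other myeloid cells in culture, so a culture of normal progenitors gradually fills with maturing cells.

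Levels are CPM, each count divided by its library's scaled total, with scaling across all 7 libraries. A difference is the log2 CPM of an MN1 library minus that of the untransduced library, given as the mean and SD over the 3 MN1 libraries. A gene was called higher or lower when all 3 MN1 libraries differed from the untransduced library by at least 2-fold in that direction. Total counts ran from 38210660 to 43194988 in these 4 libraries. Of 12351 genes with a mean level of at least 1 CPM, 809 were called higher (6.55%) and 1285 lower (10.4%). These shares are the background for the counts of calls in every list below. The untransduced library lay below all 3 MN1 libraries for 45.1% of genes, above all 3 for 38.2% and inside their range for 16.7%. The median difference over these genes was 0.07, and 90% of them lay between -2.03 and 1.46. Any pair of MN1 libraries differed by over 2-fold for 469 to 888 genes, and an MN1 library and the untransduced one for 2690 to 3339 genes. Scaling by library totals alone moved all differences by 0.19 and turned the split to 1178 higher and 1011 lower genes, or 53.8% higher against 38.6%, so every direction below is relative to the scaling used.

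**Figure D1:**
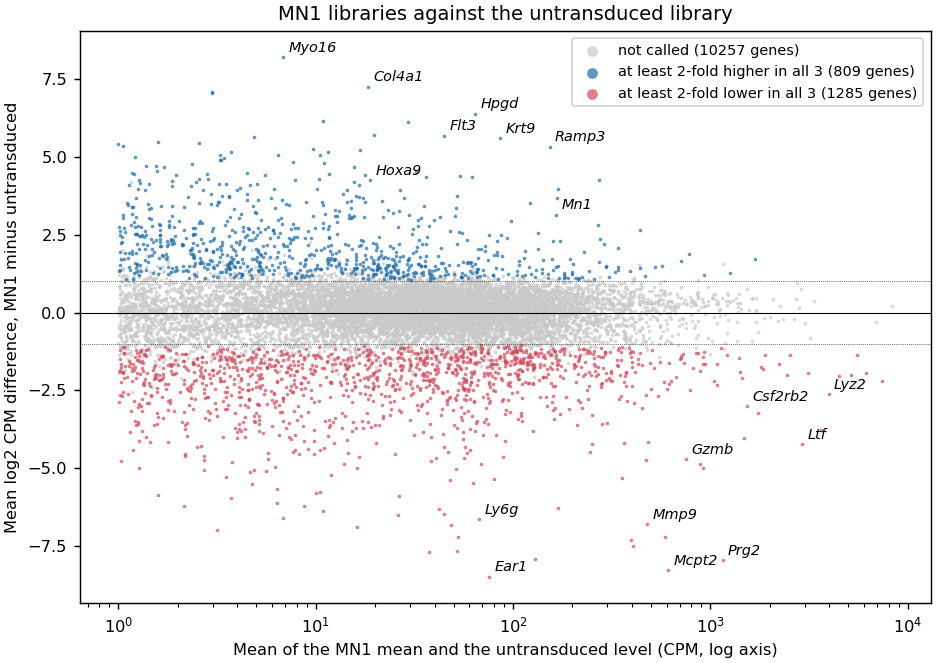
Each point is 1 of 12351 genes, with its level (mean of the MN1 mean and the untransduced value, CPM, log axis) against its mean log2 CPM difference over 3 MN1 libraries; dotted lines mark 2-fold. The 809 genes called higher and the 1285 called lower lie across the range of levels, and the labelled Lyz2, Ltf and Prg2 are abundant in the untransduced library.

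Mn1 (plus strand of chromosome 5, bases 111417362 to 111457033, build GRCm38) is a protein-coding gene and had 314, 287 and 288 CPM in MN1 replicates 1 to 3 and 33.6 CPM in the untransduced library. The 3 libraries stood well above the control and close to each other, with a difference of 3.14 (SD 0.07, n = 3), or 8.84-fold. Construct reads that matched mouse Mn1 and reads from the gene itself cannot be told apart in this value. The annotated transcript holds the run that encodes the polyglutamine stretch, 26 codons at transcript bases 2258 to 2335, in frame in the longest reading frame. It is shown because transcripts of other genes hold runs of the same codons, and capitals mark its CAA codons among CAG.
Mn1 repeat: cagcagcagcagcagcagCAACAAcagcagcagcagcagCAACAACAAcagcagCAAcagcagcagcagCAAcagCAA
One gene among the largest increases carries such a repeat. Kcna6, a voltage-gated potassium channel gene, had 258, 264 and 262 counts in the MN1 libraries and 0 in the untransduced library, and its transcript holds a CAG or CAA run of 54 bases on the opposite strand. Whether construct reads were counted there was not tested. Of the 248 described genes other than Mn1 with a run of at least 8 such codons on either strand, 19 were called higher (7.66%) and 34 lower (13.7%), near the 6.55% and 10.4% of all genes.

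The HOXA cluster encodes homeobox transcription factors of stem cells. All 5 members above the level filter, Hoxa5, Hoxa7, Hoxa9, Hoxa10 and Hoxa11, were called higher, with a median difference of 4.84 against 0.07 over all genes. Of these, Hoxa5, Hoxa7, Hoxa10 and Hoxa11 passed the filter only through their level in MN1, and with no filter 10 of the 11 genes of the cluster were called higher, at a median of 3.84. Hoxa9 (chromosome 6, 52223100 to 52231089, minus strand), a driver of myeloid leukaemia, stood at 20.7, 46.8 and 40.3 CPM in MN1 and at 1.73 CPM in the control, a difference of 4.26 (SD 0.63). Hoxa10 (52231197 to 52240854) had 20.9, 41.0 and 36.7 CPM against 0.795 CPM. The control lay far below every MN1 library for both genes, and MN1 replicate 1 was the lowest MN1 library for each of the 5 members. Hoxa11 differed by 5.17 (SD 0.60), Hoxa7 by 4.84 (SD 0.75) and Hoxa5 by 4.30 (SD 0.67). The other 6 members missed the level filter of 1 CPM. Among these, Hoxa6 had 23, 53 and 80 counts in MN1 and 2 in the control, Hoxa3 had 41, 60 and 88 against 2, and Hoxa13 had at most 1 count in any library. Of the HOXB cluster only Hoxb4 passed the level filter, at 4.24, 4.21 and 6.30 CPM in MN1 and 7.29 CPM in the control, under 2-fold apart.

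HOX proteins bind DNA with TALE cofactors of the MEIS, PBX and TGIF families, and these genes split in direction. Meis2 stood at 15.9, 42.2 and 31.3 CPM in MN1 and 1.45 CPM in the control, a difference of 4.21 (SD 0.72), and Tgif2 differed by 2.44 (SD 0.17). Meis1, the best-known HOXA9 partner in leukaemia, had 91.9, 61.2 and 129 CPM against 39.5 CPM, above the control in every library but by less than 2-fold in replicate 2. Meis3 was lower by a mean of -3.09 (SD 0.43). In all, 2 of 11 TALE genes were called higher and 2 lower, against 6.55% and 10.4% of all genes.

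Among 23 described transcription factors of stem cells and leukaemia, 7 were called higher and 3 lower, against 6.55% and 10.4% of all genes. Hlf, a regulator of stem cell quiescence, had 68.2, 132 and 154 CPM in MN1 and 5.45 CPM in the control, and Sox4 had 62.7, 92.2 and 137 CPM against 6.82 CPM. The lowest MN1 library stood 12.5-fold above the control for Hlf and 9.19-fold for Sox4. Wt1, a zinc finger factor raised in many acute leukaemias, differed by 5.07 (SD 1.13), with replicate 1 at 4.32 CPM and the others at 18.5 and 15.0 CPM. Wt1 passed the level filter only through its level in MN1. Lmo2 (2.31, SD 0.24) and Myb (1.95, SD 0.21), the last a factor that keeps progenitors immature, were also called higher. Ikzf2 differed by -2.29 (SD 0.55). Mecom, a stem cell factor, had 9.15, 7.66 and 14.3 CPM in MN1 and 16.4 CPM in the control, and was not called.

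Stem and progenitor surface markers also moved apart. Of 18 described HSC and multipotent progenitor markers 5 were called higher and 2 lower, against 6.55% and 10.4% of all genes. Their medians were 0.58, -0.60 and 0.62 in replicates 1 to 3. Flt3 (chromosome 5, 147330741 to 147400489, minus strand), the receptor tyrosine kinase of multipotent and lymphoid-primed progenitors, stood at 64.4, 111 and 87.3 CPM in MN1 and 1.62 CPM in the control, or 54.2-fold higher. Cd27 had 12.8, 24.6 and 20.4 CPM against 1.15 CPM, and Adgrg1, an adhesion receptor of stem cells, had 557, 525 and 574 CPM against 130 CPM. The control was below all MN1 libraries for these 3 genes. Cd34 had 527, 579 and 650 CPM against 301 CPM, and was not called. A pair of mouse stem cell markers was lower. Ly6a, which encodes Sca-1, had 33.0, 9.68 and 37.2 CPM against 161 CPM, and Ctla2a differed by -2.22 (SD 0.64). Kit, the stem cell factor receptor that mast cells also carry, had 311, 237 and 431 CPM against 605 CPM, under 2-fold apart in replicate 1 and replicate 3. Cd34 and Kit were thus counted in all 4 libraries, beside the markers of mature cells described next. Which cells these transcripts came from cannot be told in bulk RNA.

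**Figure D2:**
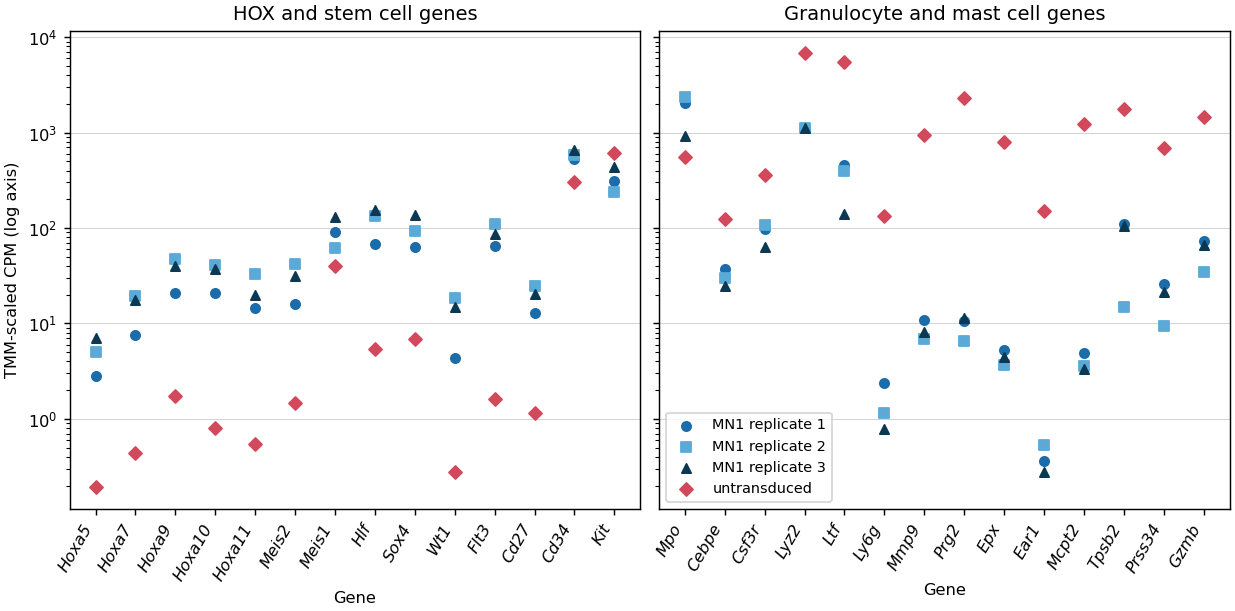
TMM-scaled CPM (log axis) of 14 HOX and stem cell genes and 14 granulocyte and mast cell genes in each of the 3 MN1 libraries and the untransduced library. HOXA genes, Meis2, Hlf, Sox4, Wt1, Flt3 and Cd27 lie at least 9.186-fold above the control in every MN1 library. The granule and protease genes from Lyz2 to Gzmb lie far below the control.

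Genes of mature granulocytes were much lower in MN1. Neutrophils store bactericidal proteins in secondary and tertiary granules made late in maturation. The list named for these granules also holds receptor and other neutrophil genes. Of its 27 markers 26 were called lower, with a median difference of -3.42. Ltf (chromosome 9, 111019271 to 111042767, plus strand), the lactoferrin gene, stood at 459, 394 and 141 CPM in MN1 and 5488 CPM in the control, a mean difference of -4.22 (SD 0.93). Mmp9, the gelatinase of tertiary granules, had 10.8, 6.90 and 8.15 CPM against 948 CPM. Ly6g, the surface antigen of mouse neutrophils, had 2.37, 1.16 and 0.785 CPM against 134 CPM, and Retnlg differed by -6.46 (SD 0.56). The control lay above every MN1 library for all of these genes, and MN1 replicate 3 was lowest for Ltf and Ly6g. The list summed to 10085, 8459 and 5816 CPM in MN1 and 47583 CPM in the control. Stfa1 was the only member not called.

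Primary granule genes, made earlier at the promyelocyte stage, did not share this pattern. Their median difference was -0.13 and turned to 0.06 with scaling by library totals, with 1 of 15 called higher and 4 lower. Mpo, the myeloperoxidase gene, stood at 2035, 2344 and 928 CPM in MN1 and 550 CPM in the control, above it in every library but under 2-fold in replicate 3. Elane and Prtn3, the genes of 2 serine proteases of the same granules, differed by 1.24 and 1.07. Serpinb1a, a protease inhibitor gene, had 542, 417 and 412 CPM against 1426.5 CPM, and Fcnb differed by -2.30 (SD 0.87). Without replicate 3, 5 of the 15 genes were called higher.

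The promoters of the neutrophil genes are shown because the C/EBP family of factors, which drives granulocyte maturation, binds such a core motif. TTGCNNAA was searched on both strands from 250 bases before to 50 after the RefSeq start site, for one start site per gene. It occurred in 9 of 25 neutrophil promoters (36%) and in 8.34% of the 9445 described genes with a promoter. Among genes called lower it occurred in 11.9%, and among those called higher in 7.91%. A stricter palindromic C/EBP motif occurred in 0 of 25 neutrophil promoters, 0.21% of genes called lower and 0.29% of all. The excess in genes called lower was not particular to the C/EBP core. An interferon response element core occurred in 4.28% of them against 3.23% of all. For a HOX with MEIS motif the shares were 5.85% and 3.93%, with 3.79% in genes called higher. The 250 bases before the start of Ltf (chromosome 9, 111019042 to 111019291 on GRCm38.p6, plus strand), Ngp (chromosome 9, 110419558 to 110419807, plus strand) and the eosinophil gene Ear1 (chromosome 14, 43819640 to 43819889, minus strand) are given 5′ to 3′ along the gene, with matches in capitals. A match describes the letters and says nothing of binding.
Ltf promoter: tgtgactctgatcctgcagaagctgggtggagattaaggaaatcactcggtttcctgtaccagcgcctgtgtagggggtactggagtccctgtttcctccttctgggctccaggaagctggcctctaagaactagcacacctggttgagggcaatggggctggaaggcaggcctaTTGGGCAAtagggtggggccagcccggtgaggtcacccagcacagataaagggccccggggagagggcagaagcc
Ngp promoter: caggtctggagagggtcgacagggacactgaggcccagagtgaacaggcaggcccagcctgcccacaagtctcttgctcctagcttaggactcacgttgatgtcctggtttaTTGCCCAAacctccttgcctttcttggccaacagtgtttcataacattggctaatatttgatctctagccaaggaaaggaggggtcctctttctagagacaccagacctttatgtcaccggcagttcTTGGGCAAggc
Ear1 promoter: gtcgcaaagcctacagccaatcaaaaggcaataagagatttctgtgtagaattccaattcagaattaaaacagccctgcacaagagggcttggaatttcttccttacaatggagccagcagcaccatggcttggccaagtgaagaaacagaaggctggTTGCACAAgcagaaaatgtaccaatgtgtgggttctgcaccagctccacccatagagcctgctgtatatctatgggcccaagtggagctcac
The Ltf match begins 75 bases before the start site, those of Ngp 138 and 11 bases before, and that of Ear1 92 bases before. Ngp differed by -3.75 on the log2 scale.

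Eosinophil genes showed the largest decreases of all marker lists. All 9 described markers were called lower, at a median of -7.64, of which 6 passed the level filter only through the control, and with no filter 10 of 11 were called lower. The list summed to 21.4, 13.4 and 21.7 CPM in MN1 and to 3802 CPM in the control. Prg2 (chromosome 2, 84980461 to 84983632, plus strand), the gene of the granule's major basic protein, stood at 10.7, 6.50 and 11.5 CPM in MN1 and 2293 CPM in the control. Epx, the eosinophil peroxidase gene, had 5.32, 3.66 and 4.45 CPM against 806 CPM. Ear1, an eosinophil ribonuclease gene, had 0.366, 0.532 and 0.276 CPM against 151 CPM, the largest mean decrease among genes named by size, at -8.48 (SD 0.43). The MN1 libraries thus held little eosinophil RNA by any of these markers. For these 3 genes the control lay at least 151.5-fold above each MN1 library, the smallest ratio being that of Epx. Alox15, a lipoxygenase gene of eosinophils and macrophages, differed by -7.70 (SD 0.72). Il5ra, the receptor chain on which eosinophils depend, differed by less, at -2.96 (SD 0.77). The Ear genes are close copies, and how their reads were divided among them is uncertain.

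Mast cell and basophil genes were lower too, and here the MN1 libraries differed more. Of 18 described mast cell markers 14 were called lower and 1 higher, and of 13 basophil markers 10 were called lower. Mcpt2 (chromosome 14, 56042041 to 56044642, plus strand), a mast cell chymase gene, had 4.95, 3.54 and 3.35 CPM in MN1 and 1218 CPM in the control. Fcer1a, the IgE-binding receptor chain shared by both cell types, had 16.9, 4.47 and 6.68 CPM against 1170.3 CPM. Tpsb2, a tryptase gene, had 111, 14.9 and 104 CPM against 1757 CPM. All MN1 libraries lay far below the control, and replicate 2 was well below the others for Tpsb2. Prss34, a basophil protease gene, differed by -5.32 (SD 0.79) and Gzmb, the granzyme B gene, by -4.70 (SD 0.59). Cpa3, the mast cell carboxypeptidase gene, differed by -2.03, and Hdc, which makes histamine, by -0.01. Summed mast cell markers stood at 5145, 2283 and 4836 CPM in MN1 and 19340 CPM in the control, and basophil markers at 1125, 448 and 842 CPM against 5768 CPM. The chymase genes Mcpt1, Mcpt2 and Mcpt4 are close copies and can share reads.

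Monocyte and macrophage markers were called lower in 18 of 30 members and higher in 1, at a median of -1.65. Lyz2, the lysozyme gene of myeloid cells, stood at 1119.5, 1105 and 1103.5 CPM in MN1 and 6827 CPM in the control, with a spread between MN1 libraries of only 0.01 on the log2 scale. The complement genes C1qa (-4.32, SD 0.74), C1qb (-3.47, SD 0.75) and C1qc (-3.47, SD 0.57), made by macrophages, differed more, as did Apoe (-3.36, SD 0.28), a lipid carrier gene. Csf1r, the M-CSF receptor gene, had 50.4, 51.9 and 77.5 CPM against 196 CPM. Marco, a scavenger receptor gene, was not called, since replicate 3 had 7.19 CPM against 10.1 CPM in the control and replicates 1 and 2 had 0.707 and 2.31 CPM.

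**Figure D3:**
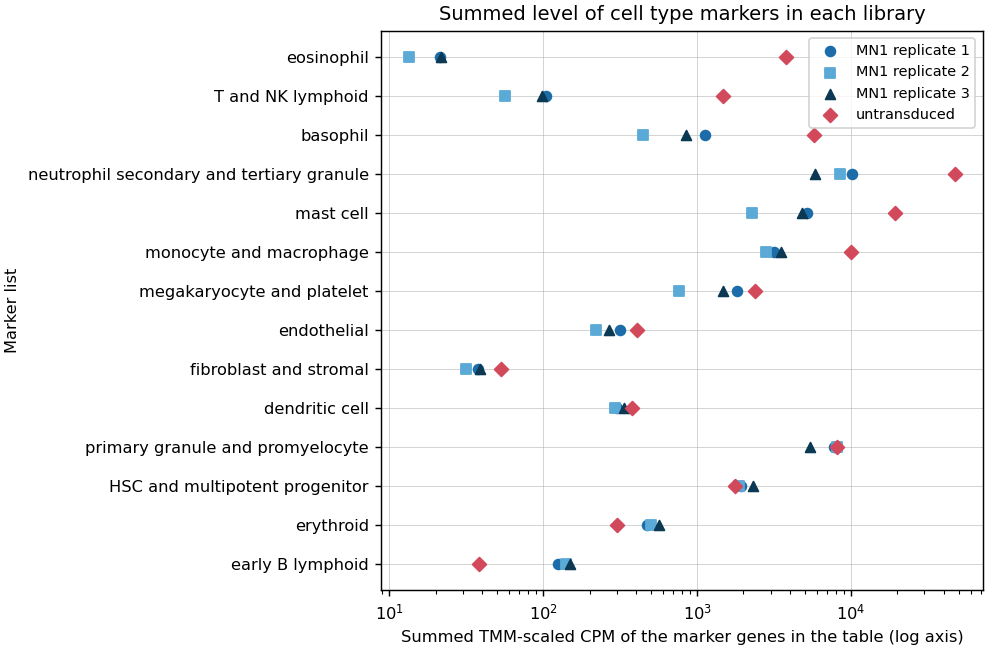
Summed TMM-scaled CPM (log axis) of 14 marker lists in each MN1 library and in the untransduced library, ordered by the ratio of the control to the MN1 mean. Eosinophil markers (13.4 to 21.7 CPM in MN1, 3802 CPM in the control) are farthest apart, and early B lymphoid markers are the farthest in the other direction.

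The machinery of phagocytes followed. All 6 subunit genes of the NADPH oxidase, the enzyme that makes superoxide, were called lower, at a median of -1.65. Cybb, its catalytic subunit gene, had 133, 122 and 136 CPM in MN1 and 668 CPM in the control, and Ncf1 had 220, 218 and 186 CPM against 963 CPM. Of 16 described chemokine and chemoattractant receptor genes 14 were called lower, at a median of -2.60. Among them, the formyl peptide receptor genes Fpr1 (-3.93, SD 0.52) and Fpr2 (-3.71, SD 0.23), the CXC receptor gene Cxcr2 (-3.82, SD 0.56) and the complement receptor gene C5ar1 (-3.15, SD 0.39) guide neutrophils to sites of infection. Of 27 lysosome and phagocytosis genes 9 were called lower and 0 higher. The control lay above all MN1 libraries for 24 of the 27, against 38.2% of all genes. Ctsd, the cathepsin D gene, had 1504, 938 and 1551 CPM against 4936 CPM, and Tyrobp, an adaptor of activating receptors, differed by -2.91 (SD 0.16).

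Among enzymes and receptors of prostaglandins and leukotrienes, 8 of 20 genes were called lower and 1 higher. Hpgd (chromosome 8, 56294585 to 56321043, plus strand), which degrades prostaglandins, had 69.1, 194 and 118 CPM in MN1 and 1.34 CPM in the control, or 94.6-fold higher. The leukotriene genes Alox5ap (-2.44, SD 0.23) and Ltc4s (-2.36, SD 0.42) and the thromboxane synthase gene Tbxas1 (-2.14, SD 0.68) were called lower.

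Receptors for cytokines and growth factors were called lower in 12 of 24 genes and higher in 2, at a median of -1.40. Csf2rb2, a beta chain gene of the IL-3 receptor, had 451, 183 and 450 CPM in MN1 and 2686 CPM in the control, and Csf3r, the G-CSF receptor gene, had 98.7, 107 and 63.1 CPM against 362 CPM. The control was above every MN1 library for both. Il1rl1, the IL-33 receptor gene of mast cells, had 515, 197 and 498 CPM against 1680.2 CPM, and Il4ra differed by -2.17 (SD 0.23). Csf2rb2 is a close copy of Csf2rb and can share its reads. The feedback phosphatase genes Dusp4 (-1.60, SD 0.29) and Dusp6 (-1.60, SD 0.13), which act on MAP kinases, were called lower, while the receptor tyrosine kinase inhibitor genes Spry1 (2.39, SD 0.23) and Spry2 (1.07, SD 0.08) were called higher, the latter not with a prior count of 10.

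Transcription factors of myeloid differentiation were called lower in 11 of 24 genes and higher in 1. Cebpe, which acts late in granulocyte maturation, stood at 37.4, 30.0 and 24.6 CPM in MN1 and 125 CPM in the control. Cebpa, which acts early in the same lineage, had 176, 230 and 174 CPM against 102 CPM, and Gfi1, a repressor that favours granulocytes, had 64.1, 74.9 and 75.3 CPM against 37.5 CPM. Cebpa and Gfi1 were thus above the control in every MN1 library without being called, and Cebpe was at least 3.34-fold below it. Spi1, which encodes PU.1, had 190, 191 and 143 CPM against 383 CPM. That call was lost with scaling by library totals and with a prior count of 10. Maf (-3.32, SD 0.60), a macrophage factor, Id2 (-2.35, SD 0.51) and Mitf (-2.20, SD 0.39), a mast cell factor, were called lower. Irf8, a factor of monocyte and dendritic cell fate, was the 1 gene called higher, at 26.2, 35.2 and 27.9 CPM against 11.1 CPM.

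Some early B lymphoid genes were higher from a very low level. Of the 17 markers on the list, 7 were described and 6 of these called higher. Rag1, Rag2, Dntt and Ebf1 passed the level filter only through the MN1 libraries, where they are high. With no filter 7 markers were called higher and 2 lower of the 15 with a count, at a median of 1.10, and from 5 CPM upward 1 of 2 was called higher. The 10 markers below the filter include Pax5, a factor that B cell identity depends on. Dntt, which adds bases to antigen receptor joints, had 110, 167 and 137 counts in MN1 and 1 in the control, a ratio of 115 with a 95% exact interval of 20.5 to 4554 that covers counting error only. Rag1, which cuts antigen receptor genes, had 1.80, 5.14 and 8.23 CPM in MN1 and 2 counts in the control. Ebf1 differed by 3.51 (SD 0.44) and Ighm by 2.03 (SD 0.05). Of 6 described T and NK lymphoid markers, Lck (4.18, SD 0.12) and Prf1 (3.70, SD 0.96) were called higher and Gzmb lower. Lck and Prf1 passed the level filter only through the MN1 libraries. With no filter 5 T and NK markers were called higher and 2 lower of the 18 with a count. From 5 CPM upward 0 of 2 were called higher and 1 lower.

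Erythroid, platelet, dendritic cell, stromal and endothelial markers showed no common direction. Calls higher and lower were 2 and 3 of 12 for erythroid markers (3 and 1 with library totals, 4 and 3 without replicate 2), 0 and 4 of 17 for megakaryocyte and platelet markers, 3 and 2 of 7 for dendritic cell markers, 1 and 3 of 5 for fibroblast and stromal markers and 4 and 1 of 9 for endothelial markers. Replicate 2 stood apart in the platelet list, with a median of -1.17 against 0.48 and -0.03 in the others. Vwf, the von Willebrand factor gene, had 39.9, 9.24 and 24.4 CPM against 97.5 CPM, and Pdgfrb, a receptor gene of stromal cells, differed by 1.81 (SD 0.42).

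Interferon-stimulated genes encode antiviral effectors, and 4 of 30 were called lower and 0 higher, or 2 lower with scaling by library totals, where 10.4% of all genes were called lower in the main setting. The list median was -0.14 in replicate 1, -1.45 in replicate 2 and 0.18 in replicate 3, so the direction was not shared. Ifit3 had 4.80, 1.34 and 7.66 CPM in MN1 and 39.2 CPM in the control, and its copy Ifit3b 1.15, 0.139 and 1.29 CPM against 14.6 CPM. Ifit3b passed the level filter only through the control. Without replicate 2, 2 genes of the list were called higher. Of 13 described interferon-inducible GTPase genes 3 were called higher, led by Tgtp1 at 11.6, 5.37 and 14.8 CPM against 0.411 CPM, and 5 without replicate 2. Tgtp1 passed the level filter only through its level in MN1, and with no filter 3 of 15 genes were called higher. Tgtp1 and Tgtp2 are close copies and can share reads. The response element core GAAANNGAAA, searched as above, occurred in 11 of 21 promoters of interferon-stimulated genes and in 3.23% of all. Ifit3 is shown (chromosome 19, 34583279 to 34583528 on GRCm38.p6, plus strand), with 2 matches on the opposite strand that begin 156 and 122 bases before the start site.
Ifit3 promoter: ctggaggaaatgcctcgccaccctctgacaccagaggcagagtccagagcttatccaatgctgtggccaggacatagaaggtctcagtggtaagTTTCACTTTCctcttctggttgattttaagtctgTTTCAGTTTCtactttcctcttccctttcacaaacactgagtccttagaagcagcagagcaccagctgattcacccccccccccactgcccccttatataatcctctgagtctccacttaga

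Toll-like receptor and NF-kB response genes were called lower in 5 of 24 and higher in 1, and lower in 8 without replicate 1. Of all genes 10.4% were called lower and 6.55% higher, the shares to set beside each count in this paragraph. Tlr2, a receptor for bacterial lipoproteins, differed by -2.29 (SD 0.16), and Il1a, a cytokine gene, by 1.81 (SD 0.48). Immediate early genes, which respond within minutes to stimulation or handling, were called lower in 4 of 19, and in 2 with scaling by library totals. Their median was -0.23, -0.65 and -1.43 in replicates 1 to 3. Fosb showed the widest spread of the listed genes, at 17.1, 25.3 and 0.912 CPM in MN1 and 38.7 CPM in the control, and Cxcl2 had 48.9, 32.1 and 4.88 CPM against 49.7 CPM. Replicate 3 was lowest for both genes. Of 16 described genes of MHC class I presentation 1 was called lower (H2-D1, -1.35, SD 0.22), and of 8 of class II 3 were, led by Ctss (-1.89, SD 0.70) and Cd74 (-1.67, SD 0.35). With library totals H2-D1 and Ctss lost their calls, which left 0 genes of class I and 2 of class II called lower.

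**Figure D4:**
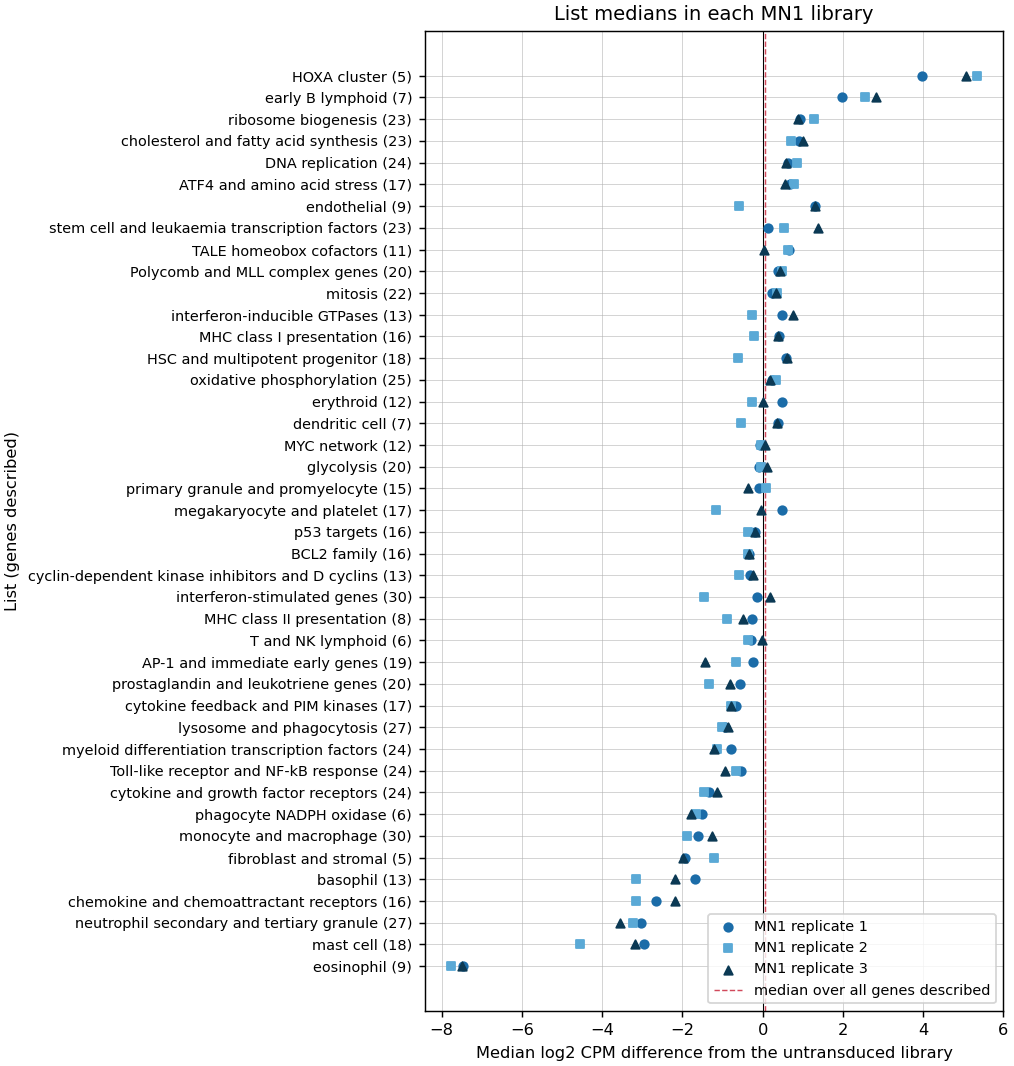
Median log2 CPM difference from the untransduced library in each MN1 library, for lists with at least 5 described genes (number in brackets); the dashed line is the median over all genes (0.07). The HOXA cluster has the highest medians and eosinophil markers the lowest, and replicate 2 stands apart for interferon-stimulated, mast cell and platelet genes.

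In the main setting the list medians of growth genes lay under 2-fold, and calls ran from 0 to 7 genes per list. Of all genes, 6.55% were called higher. Ribosome biogenesis factors build ribosomes in the nucleolus, and the control lay below all 3 MN1 libraries for 23 of 23 genes, against 45.1% of all genes. Of these, 7 were called higher and 0 lower, at a median of 0.99, and 11 were called with scaling by library totals. Ncl, the nucleolin gene, stood at 1586, 2103 and 1654 CPM in MN1 and 727 CPM in the control, and Npm1, the nucleophosmin gene, at 1144, 1548 and 1193 CPM against 557 CPM. Of 24 DNA replication genes none reached 2-fold in all 3 libraries (4 did with library totals), and the control lay below the MN1 libraries for 21, at a median of 0.71. The helicase gene Mcm7 differed by 0.99 and Pcna, the sliding clamp gene, had 387, 427 and 364 CPM against 323 CPM. For mitosis genes the median was 0.33, with none of 22 called and Mki67 at 608, 578 and 617 CPM against 605 CPM, inside the MN1 range, so that its sign (-0.01) changed with scaling by library totals.

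Cholesterol and fatty acid synthesis genes, targets of the SREBP factors, had the control below all MN1 libraries in 22 of 23 cases. The share over all genes was 45.1%. Of the 23 genes 6 were called higher and 0 lower, at a median of 0.89. Scd2, a fatty acid desaturase gene, had 1115, 1067 and 1525 CPM in MN1 and 329 CPM in the control, and stood above the control in every MN1 library. Elovl6, a fatty acid elongase gene, had 74.4, 89.3 and 94.1 CPM against 18.4 CPM. Of 17 genes of the ATF4 and amino acid stress response 5 were called higher. Among these were the serine synthesis genes Phgdh (1.51, SD 0.15) and Psat1 (1.29, SD 0.13) and the folate enzyme gene Shmt2 (1.46, SD 0.15). Oxidative phosphorylation genes had a median of 0.22, with none of 25 called. Glycolysis genes had a median of -0.05, which turned to 0.14 with library totals, with Pdk1 (1.63, SD 0.13) called higher and the glucose transporter gene Slc2a3 (-1.98, SD 0.61) lower. For 20 Polycomb and MLL complex genes the median was 0.46, and only Mllt3 (1.65, SD 0.18) was called.

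**Figure D5:**
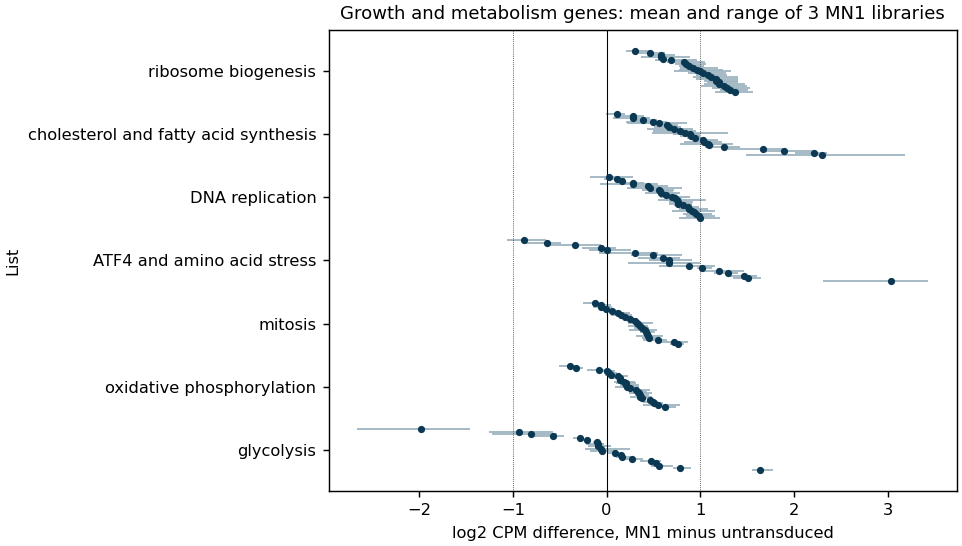
Each point is the mean log2 CPM difference of 1 gene over 3 MN1 libraries and each line runs from the lowest to the highest library; dotted lines mark 2-fold. All 23 ribosome biogenesis and all 24 DNA replication genes have means above 0, while glycolysis genes lie on both sides.

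Of 13 genes on the list of cyclin-dependent kinase inhibitors and D cyclins, which also holds their kinases and Rb1, 3 were called lower and 1 higher, all of them inhibitors. Cdkn2a, the locus of p16 and p19Arf, had 9.39, 4.05 and 5.20 CPM in MN1 and 70.0 CPM in the control, and its neighbour Cdkn2b, which encodes p15, differed by -2.39 (SD 0.31). Cdkn1c, which encodes p57 and marks quiescent stem cells, had 10.0, 4.68 and 12.2 CPM against 1.23 CPM. Cdkn1a, the p21 gene, had 251, 173 and 220 CPM against 260 CPM, under 2-fold apart in every library. Myc had 80.7, 124 and 227 CPM against 68.6 CPM and was not called, while Mxd1, a MYC antagonist gene of maturing cells, was lower at 62.4, 45.9 and 77.8 CPM against 415 CPM. Of 16 p53 target genes only Fas (-2.33, SD 0.17) was called, and of 16 BCL2 family genes only Bcl2a1a (-1.58, SD 0.23), with 4 called lower without replicate 3. In the main setting each list thus had 1 of 16 genes called lower, no more than the 10.4% of all genes. Bcl2a1a has close copies and can share reads.

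Several of the largest increases lay in genes better known from other tissues. Myo16, an unconventional myosin gene, had 323, 748 and 740 counts in the MN1 libraries and 0 in the control. Against a floor of 3 counts in that library, the lowest MN1 library was at least 95.8-fold higher. Krt9, a keratin gene of palm and sole skin, stood at 140, 189 and 178 CPM against 3.40 CPM, and Ramp3, which modifies the receptor for adrenomedullin, at 290, 238 and 370 CPM against 7.29 CPM. The lowest MN1 library exceeded the control 41.3-fold for Krt9 and 32.6-fold for Ramp3. Col4a1, a basement membrane collagen gene, had 31.4, 30.4 and 48.4 CPM against 7 counts (0.192 CPM) in the control. Cdh3, the P-cadherin gene (6.12, SD 0.92), Ddx4, a helicase gene of germ cells (5.70, SD 0.69), and Kcnk2, a potassium channel gene (6.15, SD 0.55), were also among the 15 largest increases, with Nxph4 and Adgra2. At least 8-fold differences in all 3 libraries were found for 107 genes in the higher and 166 in the lower direction. The lower group of the 15 largest held, beside eosinophil, mast cell and neutrophil genes, the protease gene Asprv1 (-6.81, SD 0.65), the adhesion gene Cadm3 (-6.89, SD 0.79) and Tmem233 (-6.97, SD 0.37).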

How the data were processed

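Estimated counts, not normalized and summed by gene symbol, are the unit in which the authors deposited 7 libraries in a single table. The submitters' processing notes name kallisto, DESeq2 and GRCm38. The sources used here give no versions, transcript index or strand setting. Of its values 32.5% were not whole (tolerance 1e-06). In 26 of 34305 rows the symbol had become a date; these held 0.172% of counts and are not named. Counts were rounded, scaled by TMM over 7 libraries (edgeR 4.0.16, R 4.3.3) and turned to log2 CPM with a prior count of 2. Genes were described from a mean of 1 CPM, both groups weighted equally. No model was tested, since the control has 1 library. The calling rule was tested on simulated data.

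The libraries follow their labels. The 29 gene lists, 14 marker lists (801 entries, of which 3 matched no symbol and were not analysed here) and naming rule were chosen with earlier results of these data known. The rule named Mn1, the 15 largest mean differences each way with at least 100 counts, up to 6 called members per list or the most abundant, 18 standing genes such as Hoxa9 and Mpo, and the 5 members with the widest MN1 spread. Members outside it were named after their values were seen. Some genes chosen by the rule are not reported here. Promoters are RefSeq's (GRCm38.p6, 9445 genes matched by symbol); gene coordinates and transcripts are from GENCODE M21. Alternatives were DESeq2 1.42.0 size factors, library totals, TMM over 4 libraries, prior counts of 0.5 and 10, level filters of none and 5 CPM, unrounded counts and leaving out each MN1 library.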

Additional observations from a re-analysis of the deposited data

How the results depend on the processing

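Among the genes named by the rule, Mki67 alone changed sign under an alternative (0.18 with library totals, 0.02 without replicate 2). Some list medians changed sign with single libraries left out. Without replicate 1 the median went from 0.30 to -0.01 for MHC class I and from -0.05 to 0.02 for glycolysis genes. It also went from 0.09 to -0.12 for erythroid and from 0.63 to -0.04 for endothelial genes. Without replicate 2 it went from -0.45 to 0.02 for interferon-stimulated and from -0.31 to 0.23 for platelet genes. Without replicate 3 it went from 0.07 to -0.08 for dendritic cell and from 0.04 to -0.08 for MYC network genes. With no level filter the T and NK median turned from -0.55 to 0.48. With library totals alone the median was -1.21 for cytokine receptors, 0.91 for DNA replication, 1.08 for cholesterol and fatty acid synthesis and -7.46 for eosinophil markers, where a prior count of 10 gave -7.22. With no level filter 1335 genes were higher and 2119 lower, the control lay above all MN1 libraries for 8697 genes and the HOXA median was 3.84, since more genes of low level were counted. From 5 CPM upward 494 genes were higher and 964 lower. Leaving out single MN1 libraries gave 875 to 951 higher and 1337 to 1476 lower genes, and medians of -1.46 to -1.23 for cytokine receptors, -3.53 to -3.09 for neutrophil markers and -7.64 to -7.37 for eosinophil markers. Of 186 named genes called, 185 kept the call with DESeq2 size factors (Wdr43 lost it), 182 with a prior count of 10 (lost: Spry2, Spi1, Ermap and Egr3) and 175 with library totals, which ended the calls of Spi1, Cdkn2d, Tlr6, Ermap, H2-D1, Gata1, Ier3, Zbp1, Oas2, Ctss and Egr3. Small counts of calls in lists moved too: without replicate 2, 2 MHC class I, 1 p53 target, 1 platelet and 2 monocyte and macrophage genes were called higher, and 2 T and NK genes lower; without replicate 3, 2 p53 target genes and 2 T and NK genes were lower, and 1 p53 target and 1 BCL2 family gene higher; without replicate 1, 1 chemoattractant receptor gene was higher; with library totals, 2 Polycomb and MLL and 2 monocyte and macrophage genes were higher; and with a prior count of 10 no mast cell marker was higher. No paired analysis was possible because the control has 1 library. The spread of the control is unknown, and depth limits genes with few counts in it, such as Myo16, Dntt and Rag1.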
